A study of Rattus norvegicus with 12 samples.

Results

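The genes described here are 41 members of the interferon response and of antigen presentation, listed by symbol; the rule uses no measured value, but earlier results of these data were known when the list was made. All 41 were found in the deposited table of 21071 rat genes, and all 41 were among the 15650 genes with enough reads to be tested. Gbp4, Mx1 and Oas1a had 0 counts in a whole group. These genes, Xaf1, Ifit1 and Ifit3 passed that filter only with the help of erastin libraries, Oas1a through those with NPPC-Exo alone. The rises of Gbp4, Mx1 and Xaf1 with erastin thus rest on the libraries that let them pass. RNA-seq was done on cultured rat nucleus pulposus cells, which come from the gel-like centre of the intervertebral disc. The 12 libraries fall into 4 groups of 3: cells given exosomes of nucleus pulposus progenitor cells (NPPC-Exo), cells given such exosomes made to carry more miR-221-3p (miR-Exo), and the same 2 treatments together with erastin. Erastin blocks cystine uptake and so induces ferroptosis, in which iron drives the peroxidation of lipids until the cell dies, and per the labels it was given for 48 h at 0.1 to 5 µM, with no dose per library. Exosomes, small vesicles shed by cells, were given at 50 µg/mL in every group, so what the groups share is exosome treatment, and cells without exosomes were not analysed here. The labels give no age, strain or donor of the cells. Nor do they state if libraries within a group stem from separate cultures, and p values therefore measure the spread between libraries.

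Interferons signal through receptors and JAK kinases to STAT and IRF proteins, which enter the nucleus and switch on a broad set of antiviral and antigen-presenting genes. Type I interferon acts mainly through a complex that holds STAT2 and IRF9 and binds the interferon-stimulated response element (ISRE), and interferon gamma mainly through the gamma-activated site (GAS), with IRF1 as a relay. Among the genes switched on are those that make a cell's peptides visible to T cells: the immunoproteasome cuts proteins, the TAP transporter moves the peptides, and tapasin loads them onto MHC class I with beta-2 microglobulin.

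The members were matched to RefSeq promoters of the GRCr8 build, and 32 of the 41 had one; Nlrc5, Ciita, Mx2, Ifit1, Ifit2, Isg15, Usp18, Ddx58 and Dhx58 had none. The 250 bases before the start were searched on both strands for an ISRE (TTTC, any 2 bases, TTTC), a GAS (TTC, any 3 bases, GAA) and an NF-kB motif. An ISRE lay in 18 of the 32 windows (56.2%), against 3.41% of all 33469 rat promoter windows of that length. A GAS lay in 5 windows (15.6%, against 7.67% of all) and an NF-kB motif in 8 (25%, against 6.33% of all). The promoters below, 5′ to 3′ on the gene's strand with motif matches in capitals, belong to the 6 members that rose most with erastin under NPPC-Exo among those with a match; Oasl did not pass under miR-Exo. Each run ends at the base before the gene's start.
Gbp4: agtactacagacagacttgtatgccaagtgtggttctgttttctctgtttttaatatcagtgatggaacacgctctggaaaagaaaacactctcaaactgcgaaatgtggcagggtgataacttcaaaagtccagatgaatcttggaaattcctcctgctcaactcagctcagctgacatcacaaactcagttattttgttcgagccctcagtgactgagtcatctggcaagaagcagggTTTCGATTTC
Gbp5: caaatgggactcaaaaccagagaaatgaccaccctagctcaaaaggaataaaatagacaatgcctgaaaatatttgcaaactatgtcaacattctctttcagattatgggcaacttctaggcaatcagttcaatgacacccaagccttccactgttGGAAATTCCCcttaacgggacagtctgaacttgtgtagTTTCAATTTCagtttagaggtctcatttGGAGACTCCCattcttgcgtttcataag
Gbp2: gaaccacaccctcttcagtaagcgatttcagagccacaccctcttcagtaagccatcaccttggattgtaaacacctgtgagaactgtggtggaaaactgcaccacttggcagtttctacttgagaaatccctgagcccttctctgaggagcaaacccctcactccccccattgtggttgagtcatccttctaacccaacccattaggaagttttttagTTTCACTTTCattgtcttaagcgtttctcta
Xaf1: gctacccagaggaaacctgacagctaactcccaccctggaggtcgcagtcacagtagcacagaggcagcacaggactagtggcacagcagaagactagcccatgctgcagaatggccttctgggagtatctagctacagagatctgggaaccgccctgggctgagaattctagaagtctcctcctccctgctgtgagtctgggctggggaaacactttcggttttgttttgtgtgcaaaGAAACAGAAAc
Oasl: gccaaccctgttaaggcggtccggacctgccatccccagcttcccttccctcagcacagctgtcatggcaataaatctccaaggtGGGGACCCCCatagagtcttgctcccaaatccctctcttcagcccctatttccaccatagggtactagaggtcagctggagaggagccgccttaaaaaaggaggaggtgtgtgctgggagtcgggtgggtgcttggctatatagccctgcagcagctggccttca
Cd74: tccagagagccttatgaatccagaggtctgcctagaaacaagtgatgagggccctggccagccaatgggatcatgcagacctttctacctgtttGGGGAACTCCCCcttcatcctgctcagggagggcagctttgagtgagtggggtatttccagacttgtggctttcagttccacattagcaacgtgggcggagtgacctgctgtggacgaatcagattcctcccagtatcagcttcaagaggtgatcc

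In GRCr8 the windows are chr2:233978236-233978485 (plus strand) for Gbp4, chr2:233910749-233910998 (plus) for Gbp5 and chr2:234005477-234005726 (plus) for Gbp2. They are chr10:57415685-57415934 (plus) for Xaf1, chr12:47356293-47356542 (minus) for Oasl and chr18:56526956-56527205 (plus) for Cd74. The capitals mark an ISRE on either strand in Gbp4, Gbp2 and Xaf1, an ISRE and NF-kB matches in Gbp5, and NF-kB matches alone in Oasl and Cd74, where those of Cd74 overlap in 1 run. Gbp5, Gbp4 and Gbp2 lie close together on chromosome 2, and their ISRE begins 56, 10 and 31 bases before the start. Of the 10 genes of the immunoproteasome and of peptide loading, 6 held an ISRE in the window and 4 did not (Psmb8, Psmb9, Psme1 and Cd74). The ISRE of Tap1, 121 bases before its start, lies between the starts of Tap1 and Psmb9 but outside the Psmb9 window. Psmb10 had 2 matches, Tap2 and Psme2 carried GAAAGCGAAA, Tapbp carried GAAAATGAAA and GAAAGTGAAA with 4 bases shared, Tap1 carried TTTCGGTTTC, and B2m carried GAAACTGAAA. A match is a description of the sequence and not evidence of binding. The mature rat miR-221-3p that miR-Exo carry in excess is shown with its seed, bases 2 to 8, in capitals (RefSeq, GRCr8, chrX:6023246-6023268, plus strand).
rno-miR-221-3p: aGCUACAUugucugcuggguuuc

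Library totals ran from 54616827 to 68865720 counts, so a floor of 3 counts stands for 0.0440 to 0.0565 CPM (counts over the scaled library size). CPM values are scaled by trimmed means of M values. A gene is said to rise or fall where edgeR's quasi-likelihood test gave a Benjamini-Hochberg adjusted p under 0.05, with all 15650 genes in the adjustment. The labelled cell type was looked at through 12 nucleus pulposus markers in the table. Their summed level was 7380 to 8883 CPM without erastin and 1204 to 1531 CPM with it. Most of it was Acan and Col2a1, so the sum mainly follows these genes. Of 11 tested markers, 3 rose and 5 fell with erastin under NPPC-Exo, against 21.5% and 22.1% of all tested genes. Under miR-Exo 3 rose and 6 fell, against 24.7% and 24.4% of all. Krt19 and Tbxt had no row by these symbols, and Krt18 was too low to test, with at most 16 counts in any library. Markers of blood-borne cells were low. The summed level of 10 myeloid markers was 7.91 to 11.6 CPM without erastin, 13.4 to 18.2 CPM with erastin and NPPC-Exo, and 22.7 to 30.1 CPM with erastin and miR-Exo. Most of that was Cd14. Adgre1 was at 0 in 3 of the 4 groups, Aif1 in both groups without erastin, and Ptprc had no row by this symbol. The 9 lymphoid markers summed to at most 0.922 CPM and the 7 dendritic markers to 9.79 to 16.6 CPM without erastin and 21.1 to 26.3 CPM with it, mainly Zbtb46, Itgax and, with erastin, Cd83. The endothelial sum, mainly Esam and Flt1, was 137 to 155 CPM without erastin and 9.70 to 15.3 CPM with it. The part of other cells in the results that follow was not tested, and in bulk RNA fewer cells of a type and less RNA per cell cannot be told apart.

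Under NPPC-Exo, 31 of the 41 members rose with erastin, 1 fell and 9 did not pass the test. Over all tested genes 21.5% rose and 22.1% fell in that comparison. At least 2-fold rises numbered 24 members, where 6.78% of all genes rose that much. Under miR-Exo 31 members rose again, 1 fell and 9 did not pass, against 24.7% of all genes that rose and 24.4% that fell; 22 members rose at least 2-fold, against 7.21% of all genes. The median log2 change of the members was 1.45 under NPPC-Exo and 1.43 under miR-Exo, and that of all tested genes 0.02 and 0.03. The same 28 members rose under both kinds of exosome, from separate sets of 6 libraries; 3 rose under NPPC-Exo alone, 3 under miR-Exo alone, and 5 passed in neither, which is no test of a difference. In 35 members every erastin library with NPPC-Exo lay above every NPPC-Exo library without it, against 27% of all genes. The same held in 35 members under miR-Exo, against 30.3% of all genes, and 31 members were in both counts. With scaling by library size alone, the median of all genes moved to 0.30 and 0.33. The share of calls that were rises then went from 49.3% to 77.8% under NPPC-Exo and from 50.4% to 76.4% under miR-Exo, and 35 and 34 members rose.

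**Figure D1:**
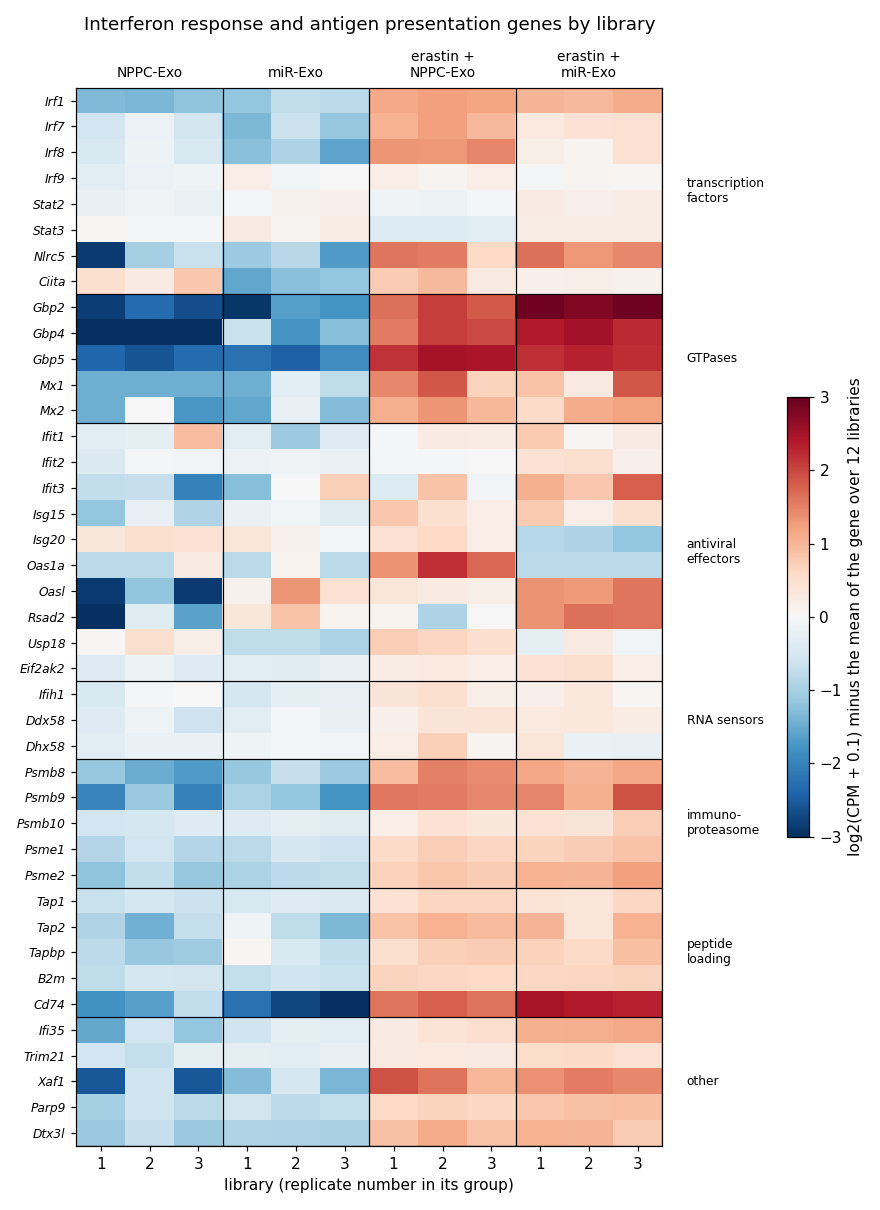
Level of each of the 41 members (rows, ordered by role) in each of the 12 libraries (columns), as log2(CPM + 0.1) minus the gene's mean over the 12 libraries; red is above and blue below that mean. Most rows turn from blue to red between the 6 libraries without erastin and the 6 with it, while Stat3, Irf9, Isg20, Ciita and Oas1a follow other patterns.

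Of the lists by role, the interferon-induced GTPases had the largest median rise with erastin, though under miR-Exo the largest single rise was that of Cd74. The guanylate-binding proteins Gbp2, Gbp4 and Gbp5 attack the membranes of pathogens and of the vacuoles that hold them. Gbp5 measured 2.50, 2.17 and 2.62 CPM with NPPC-Exo, while with miR-Exo it measured 2.79, 2.37 and 3.65 CPM. With erastin it measured 60.6, 76.6 and 74.6 CPM under NPPC-Exo and 62.3, 66.8 and 62.8 CPM under miR-Exo. The 6 erastin libraries all lay far above the 6 others, and the 2 erastin groups overlapped. The log2 rise was 4.86 ± 0.15 (adjusted p = 3.5e-11) under NPPC-Exo and 4.44 ± 0.15 (adjusted p = 4.9e-11) under miR-Exo, each ± its SE. Gbp2 measured 0.802, 1.17 and 0.904 CPM with NPPC-Exo, 0.742, 1.92 and 1.73 CPM under miR-Exo, 19.7, 26.6 and 22.7 CPM with erastin and NPPC-Exo, and 47.7, 43.1 and 47.5 CPM with erastin and miR-Exo. The erastin libraries again lay above the rest, and here those with miR-Exo lay above those with NPPC-Exo. On the log2 scale it rose by 4.59 ± 0.26 (adjusted p = 1e-08) and 4.97 ± 0.25 (adjusted p = 3.1e-09). Gbp4 had 0 counts in all 3 NPPC-Exo libraries and 0.414, 0.138 and 0.236 CPM with miR-Exo. In the erastin libraries it measured 2.30, 3.34 and 3.11 CPM under NPPC-Exo, at least 53.2-fold higher (adjusted p = 2.6e-07), and 4.12, 4.59 and 3.73 CPM under miR-Exo, a log2 rise of 3.97 ± 0.35 (adjusted p = 2.8e-06). Every erastin library of Gbp4 stood above every other. As these genes share stretches of sequence and lie in a cluster, reads may have been split between them.

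Mx1 and Mx2, dynamin-like GTPases that block viruses, stayed low. Mx1 had 0 counts with NPPC-Exo and 0, 0.121 and 0.0630 CPM with miR-Exo. Erastin libraries gave 0.651, 0.907 and 0.342 CPM under NPPC-Exo, at least 11.6-fold higher (adjusted p = 0.0012), and 0.400, 0.235 and 0.910 CPM under miR-Exo, a log2 rise of 3.03 ± 0.99 (adjusted p = 0.025). Libraries with and without erastin did not overlap, but the rise under miR-Exo lost its call without miR-Exo replicate 1 or 3 or without replicate 3 of erastin and miR-Exo, with adjusted p from 0.053 to 0.11, and without miR-Exo replicate 2 it came to 3.91. Mx2 measured 0.285, 0.979 and 0.217 CPM with NPPC-Exo, 0.259, 0.796 and 0.331 CPM under miR-Exo, 2.16, 2.57 and 2.04 CPM with erastin and NPPC-Exo, and 1.48, 2.20 and 2.36 CPM with erastin and miR-Exo. All 6 erastin libraries were again above the rest, and replicate 2 was the highest in both groups without erastin. Its rise in log2 terms was 2.19 ± 0.52 (adjusted p = 0.004) and 2.12 ± 0.52 (adjusted p = 0.0043); without that replicate of the group without erastin it was 3.16 and 2.76. So 5 of 5 GTPases rose under each kind of exosome, against 21.5% of all tested genes under NPPC-Exo and 24.7% under miR-Exo. Of these, Gbp4 and Mx1 passed the filter on reads through the erastin libraries. The median log2 rise was 4.86 under NPPC-Exo (4.59 with Gbp4 and Mx1 at their bounds) and 3.97 under miR-Exo.

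**Figure D2:**
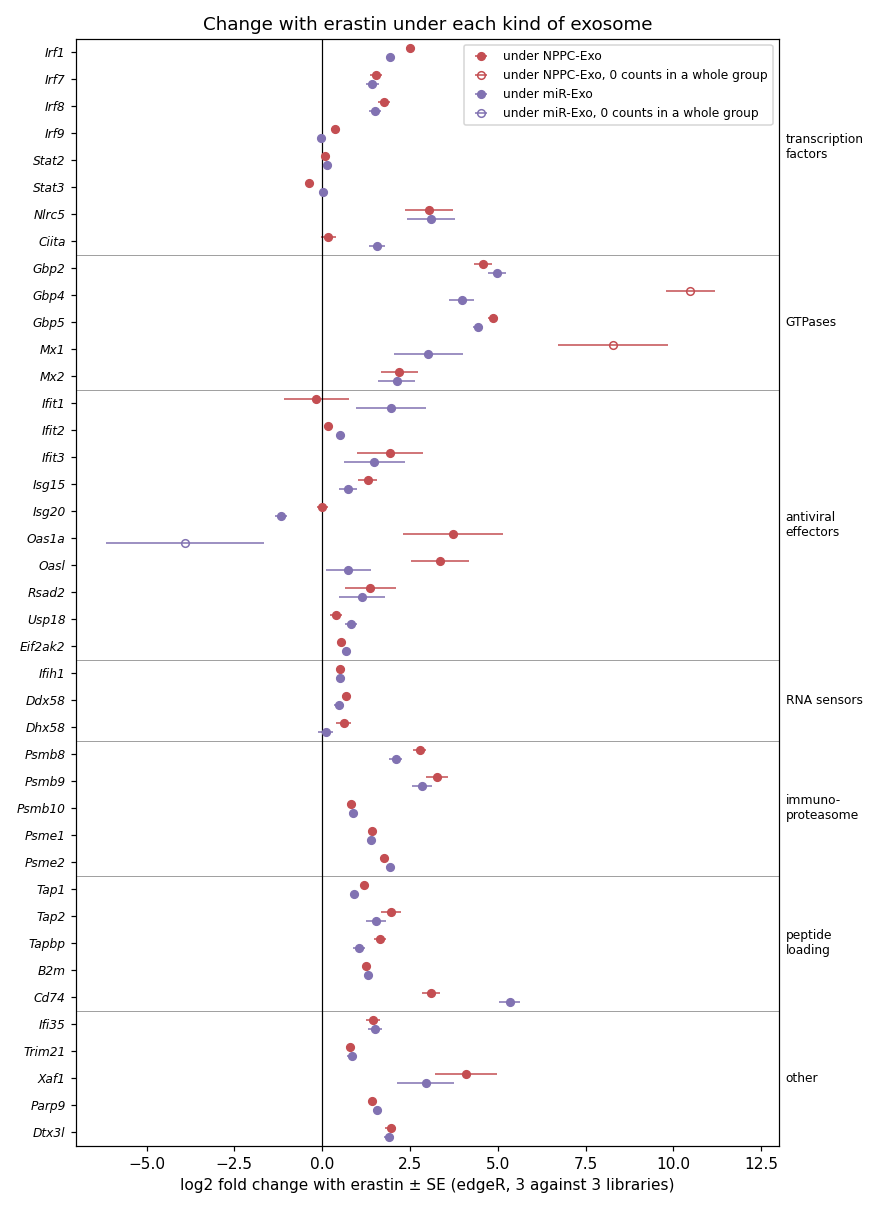
Log2 fold change with erastin for each member, under NPPC-Exo (red) and miR-Exo (violet), with the SE of edgeR's fit, 3 libraries against 3. Open circles mark genes with 0 counts in a whole group, whose fitted value is no bound; the 5 GTPases, the 5 immunoproteasome genes and the 5 genes of peptide loading all lie to the right of 0.

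Of the 8 transcription factors, 5 rose and 1 fell under NPPC-Exo, and 5 rose and none fell under miR-Exo, by edgeR's adjusted p. Over all tested genes 21.5% rose and 22.1% fell under NPPC-Exo, and 24.7% and 24.4% under miR-Exo. Irf1, the relay of interferon gamma, measured 8.79, 8.45 and 9.46 CPM with NPPC-Exo, while with miR-Exo it measured 9.82, 13.1 and 12.6 CPM. Under erastin the values were 48.7, 51.9 and 50.1 CPM under NPPC-Exo and 45.1, 43.3 and 48.1 CPM under miR-Exo. No library without erastin came near those with it. The log2 rise was 2.50 ± 0.10 (adjusted p = 5.2e-10) under NPPC-Exo and 1.94 ± 0.10 (adjusted p = 3.5e-09) under miR-Exo. Nlrc5, the transactivator of MHC class I genes, measured 0, 0.264 and 0.362 CPM with NPPC-Exo, 0.241, 0.311 and 0.126 CPM under miR-Exo, 2.11, 2.06 and 1.01 CPM with erastin and NPPC-Exo, and 2.19, 1.72 and 1.88 CPM with erastin and miR-Exo. It was low throughout, yet libraries with and without erastin did not overlap, with replicate 3 of erastin and NPPC-Exo the lowest of the erastin libraries. On the log2 scale it rose by 3.04 ± 0.69 (adjusted p = 0.0029) and 3.09 ± 0.68 (adjusted p = 0.0021); under NPPC-Exo it was 2.45 without NPPC-Exo replicate 1 and 3.71 without replicate 3.

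Irf7, which amplifies type I interferon, measured 3.62, 4.86 and 3.67 CPM with NPPC-Exo, 2.10, 3.46 and 2.44 CPM under miR-Exo, 11.4, 12.9 and 10.9 CPM with erastin and NPPC-Exo, and 6.69, 7.40 and 7.50 CPM with erastin and miR-Exo. Irf8, a factor best known from myeloid cells, measured 4.17, 5.20 and 4.12 CPM, 2.36, 3.01 and 1.87 CPM, 14.7, 14.4 and 16.2 CPM and 6.56, 6.14 and 7.92 CPM in the same order of groups. Both genes were highest with erastin and NPPC-Exo, and in both the groups without erastin lay below those with it. Irf7 rose by 1.54 ± 0.18 on the log2 scale under NPPC-Exo (adjusted p = 1.1e-05) and 1.43 ± 0.18 under miR-Exo (adjusted p = 2.3e-05), and Irf8 by 1.75 ± 0.17 (adjusted p = 1.9e-06) and 1.51 ± 0.17 (adjusted p = 9e-06). The summed myeloid and dendritic markers were also higher with erastin, and their part in the rise of Irf8 was not tested. The gene model of Irf7 overlaps 65 bases of Phrf1 on the opposite strand, and the sources used here do not say whether strand was counted. Irf9, the DNA-binding partner of STAT2, rose by 0.36 ± 0.10 (adjusted p = 0.013) under NPPC-Exo, a call lost without NPPC-Exo replicate 1 (0.31, adjusted p = 0.050). Under miR-Exo its log2 change was -0.02 ± 0.10 (adjusted p = 0.9), and 0.29 with scaling by library size alone. Stat2 changed by 0.08 ± 0.06 (adjusted p = 0.32) and 0.13 ± 0.06 (adjusted p = 0.1), neither past the threshold.

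Stat3, which carries signals of the interleukin-6 family and can restrain interferon responses, was the member that fell under NPPC-Exo. It measured 211, 196 and 201 CPM with NPPC-Exo, while with miR-Exo it measured 247, 219 and 240.3 CPM. With erastin it measured 156, 155 and 163 CPM under NPPC-Exo and 239, 240.1 and 241 CPM under miR-Exo. The libraries with erastin and NPPC-Exo stood below all others, while those with erastin and miR-Exo lay within the range of miR-Exo alone. The log2 change was -0.36 ± 0.05 (adjusted p = 5.9e-05) under NPPC-Exo and 0.03 ± 0.05 (adjusted p = 0.7) under miR-Exo. With scaling by library size alone the first was -0.08 (adjusted p = 0.17), so that fall depends on the scaling. Ciita, the transactivator of MHC class II genes and of Cd74, measured 3.30, 2.79 and 4.14 CPM with NPPC-Exo, 0.725, 0.917 and 0.992 CPM under miR-Exo, 4.04, 4.66 and 2.85 CPM with erastin and NPPC-Exo, and 2.61, 2.64 and 2.58 CPM with erastin and miR-Exo. The miR-Exo libraries without erastin stood below all others. With erastin it rose by 1.57 ± 0.23 (adjusted p = 8.2e-05) under miR-Exo, and under NPPC-Exo the change was 0.18 ± 0.21 (adjusted p = 0.56).

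Of the 10 antiviral effectors, 3 rose under NPPC-Exo (30%, against 21.5% of all tested genes), and under miR-Exo 4 rose and 1 fell (40% and 10%, against 24.7% and 24.4% of all), by edgeR's adjusted p. The share that rose under NPPC-Exo was thus near that of all genes. Eif2ak2, the kinase that halts translation when it meets double-stranded RNA, rose by 0.55 ± 0.08 (adjusted p = 0.00012) and 0.69 ± 0.08 (adjusted p = 1.4e-05). Isg15, a ubiquitin-like protein that is attached to other proteins, measured 1.03, 2.01 and 1.25 CPM with NPPC-Exo, 2.09, 2.30 and 1.87 CPM under miR-Exo, 4.35, 3.42 and 2.82 CPM with erastin and NPPC-Exo, and 4.28, 2.79 and 3.41 CPM with erastin and miR-Exo. The erastin libraries all lay above the others, and the groups without erastin touched. Its rise in log2 terms was 1.30 ± 0.27 (adjusted p = 0.0013) and 0.74 ± 0.26 (adjusted p = 0.031); the latter lost its call without miR-Exo replicate 1 or 3 or without replicate 1 or 3 of erastin and miR-Exo, with adjusted p from 0.060 to 0.14.

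Oasl, a relative of the oligoadenylate synthetases, measured 0, 0.226 and 0 CPM with NPPC-Exo, 0.707, 1.73 and 0.913 CPM under miR-Exo, 0.839, 0.771 and 0.728 CPM with erastin and NPPC-Exo, and 1.78, 1.69 and 2.15 CPM with erastin and miR-Exo. It was the NPPC-Exo group without erastin that stood apart, below the other 9 libraries. Its rise was 3.37 ± 0.83 (adjusted p = 0.0047) under NPPC-Exo, and under miR-Exo the change was 0.74 ± 0.64 (adjusted p = 0.37). The NPPC-Exo level came from replicate 2 alone, and without that library the rise was at least 14.5-fold. Oas1a, which makes the oligoadenylates that wake RNase L, was all but silent: it measured 0, 0 and 0.108 CPM with NPPC-Exo, 0, 0.0865 and 0 CPM under miR-Exo, 0.343, 0.696 and 0.475 CPM with erastin and NPPC-Exo, and 0 counts in each library with erastin and miR-Exo. Its level was above that of the other groups with erastin and NPPC-Exo, where the log2 change of 3.72 ± 1.42 (adjusted p = 0.054) did not pass.

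Isg20, an exonuclease that degrades viral RNA, measured 5.29, 5.91 and 5.68 CPM with NPPC-Exo, while with miR-Exo it measured 5.43, 4.57 and 4.08 CPM. In the erastin libraries it measured 5.74, 6.34 and 4.83 CPM under NPPC-Exo and 2.25, 2.17 and 1.81 CPM under miR-Exo. Only the libraries with erastin and miR-Exo stood apart, below the other 9. Its log2 change was 0.00 ± 0.16 (adjusted p = 1) under NPPC-Exo, and under miR-Exo it fell by 1.18 ± 0.16 (adjusted p = 4.7e-05). Usp18, which strips ISG15 from proteins and damps the type I receptor, measured 5.83, 7.98 and 6.51 CPM with NPPC-Exo, 3.33, 3.36 and 2.91 CPM under miR-Exo, 9.57, 9.05 and 8.17 CPM with erastin and NPPC-Exo, and 4.75, 6.90 and 5.37 CPM with erastin and miR-Exo. Each erastin group lay above the group with the same exosome. The log2 change was 0.40 ± 0.16 (adjusted p = 0.062) under NPPC-Exo, short of the threshold, and the rise under miR-Exo was 0.83 ± 0.17 (adjusted p = 0.001). Rsad2 (viperin), which blocks viral replication, measured 0, 0.565 and 0.181 CPM with NPPC-Exo, 0.983, 1.45 and 0.803 CPM under miR-Exo, 0.822, 0.348 and 0.758 CPM with erastin and NPPC-Exo, and 2.06, 2.57 and 2.48 CPM with erastin and miR-Exo. The groups with erastin and without overlapped under NPPC-Exo and did not under miR-Exo. Its changes of 1.37 ± 0.74 (adjusted p = 0.16) and 1.13 ± 0.65 (adjusted p = 0.17) did not pass.

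The IFIT proteins bind viral RNA or hold up its translation. Ifit2 rose by 0.52 ± 0.11 (adjusted p = 0.0013) under miR-Exo, and its change under NPPC-Exo was 0.15 ± 0.11 (adjusted p = 0.28). Ifit1 and Ifit3 reached at most 0.308 and 1.31 CPM in any library, and neither passed in either comparison. Of the 3 cytosolic sensors of viral RNA, Ifih1 (MDA5) rose by 0.52 ± 0.14 under NPPC-Exo (adjusted p = 0.0075) and 0.52 ± 0.14 under miR-Exo (adjusted p = 0.0066). Ddx58 (RIG-I) rose by 0.69 ± 0.13 (adjusted p = 0.0009) and 0.48 ± 0.13 (adjusted p = 0.0089). Dhx58 (LGP2), which tunes the other two, rose by 0.62 ± 0.22 (adjusted p = 0.034) under NPPC-Exo, a call lost in 4 of the 6 fits that leave out a library of either group (any NPPC-Exo library, or replicate 2 of erastin and NPPC-Exo; adjusted p 0.063 to 0.16). Under miR-Exo the change of Dhx58 was 0.10 ± 0.21 (adjusted p = 0.74). The rises of the sensors were all under 2-fold.

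All 5 genes of the immunoproteasome rose under both kinds of exosome (edgeR, adjusted p), against 21.5% and 24.7% of all tested genes. Their medians were 1.77 under NPPC-Exo and 1.93 under miR-Exo on the log2 scale. Psmb8 and Psmb9 are catalytic subunits that take the place of Psmb5 and Psmb6 in the proteasome. Psmb8 measured 3.80, 2.97 and 2.57 CPM with NPPC-Exo, 3.85, 5.28 and 3.97 CPM under miR-Exo, 16.4, 24.6 and 22.8 CPM with erastin and NPPC-Exo, and 19.1, 17.4 and 19.2 CPM with erastin and miR-Exo. Psmb9 measured 0.927, 1.77 and 0.904 CPM, 2.02, 1.73 and 1.07 CPM, 12.0, 11.9 and 10.9 CPM and 11.1, 8.36 and 15.2 CPM in the same order. In both genes the 6 erastin libraries formed a block above the other 6. Psmb8 rose by 2.77 ± 0.19 (adjusted p = 5.5e-08) and 2.09 ± 0.18 (adjusted p = 5.6e-07), and Psmb9 by 3.27 ± 0.30 (adjusted p = 1.2e-06) and 2.85 ± 0.29 (adjusted p = 3.2e-06). Psmb10, the third induced subunit, moved less, by 0.83 ± 0.11 (adjusted p = 4e-05) and 0.87 ± 0.11 (adjusted p = 2.3e-05).

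Psme1 and Psme2 form the PA28 cap that opens the proteasome. Psme1 measured 21.6, 26.6 and 21.5 CPM with NPPC-Exo, 22.6, 27.6 and 25.8 CPM under miR-Exo, 58.9, 65.8 and 61.9 CPM with erastin and NPPC-Exo, and 62.6, 67.0 and 71.3 CPM with erastin and miR-Exo. Psme2 measured 14.4, 20.1 and 15.1 CPM, 17.2, 19.2 and 19.9 CPM, 54.2, 59.4 and 56.3 CPM and 68.99, 67.5 and 78.2 CPM in the same order. In both genes the erastin libraries lay above all the others. The log2 rise was 1.42 ± 0.10 (adjusted p = 6.5e-08) and 1.40 ± 0.10 (adjusted p = 6.3e-08) for Psme1, and 1.77 ± 0.11 (adjusted p = 3.5e-08) and 1.93 ± 0.11 (adjusted p = 1.3e-08) for Psme2. Psme1 overlaps Emc9 on the opposite strand over 2574 bases. The constitutive counterparts gave no such rise: Psmb5 changed by 0.11 ± 0.12 (adjusted p = 0.49) and -0.04 ± 0.12 (adjusted p = 0.83), Psmb6 by 0.13 ± 0.11 (adjusted p = 0.38) and 0.13 ± 0.11 (adjusted p = 0.36), and Psmb7 by 0.19 ± 0.10 (adjusted p = 0.13) and 0.29 ± 0.10 (adjusted p = 0.022), where the last value passed.

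To compare levels per length, the deposited FPKM, which are counts per gene length and library size, of Psmb8, Psmb9 and Psmb10 were summed and divided by the sum for Psmb5, Psmb6 and Psmb7. The ratio was 0.0674, 0.0637 and 0.0602 with NPPC-Exo and 0.0859, 0.0777 and 0.0817 with miR-Exo. With erastin it was 0.164, 0.183 and 0.176 under NPPC-Exo and 0.212, 0.180 and 0.200 under miR-Exo. Only the erastin groups overlapped each other. The mean was 0.0637 ± 0.0036 (SD, n = 3) and 0.174 ± 0.0096 (SD, n = 3) under NPPC-Exo, a 2.73-fold rise, and 0.0818 ± 0.0041 (SD, n = 3) and 0.197 ± 0.016 (SD, n = 3) under miR-Exo, 2.41-fold. In exact two-sided permutation tests p was 0.1 for each, the smallest that 3 against 3 libraries allow. By this measure the constitutive subunits still outweighed the induced ones by a wide margin in every library.

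**Figure D3:**
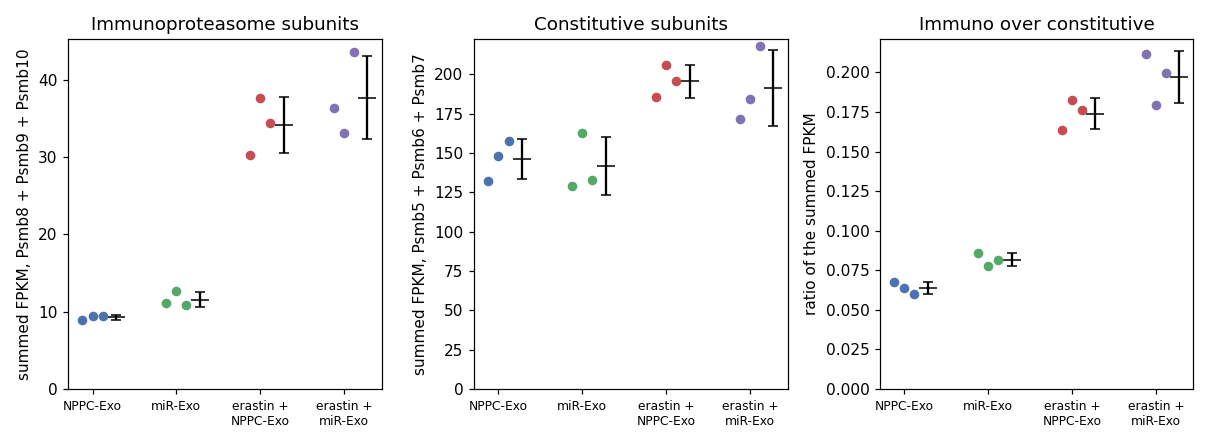
Summed FPKM of the 3 induced catalytic subunits (left), of the 3 constitutive ones (middle) and their ratio (right) in each library; bars give the mean ± SD of 3 libraries. The ratio lies between 0.0602 and 0.0859 without erastin and between 0.164 and 0.212 with it; FPKM are scaled by library size, on which scale the constitutive sum is higher with erastin.

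The 5 genes of peptide transport and loading also rose in both comparisons, against 21.5% and 24.7% of all tested genes. Their medians were 1.64 under NPPC-Exo and 1.30 under miR-Exo. B2m, the light chain of MHC class I, measured 176, 211 and 207 CPM with NPPC-Exo, 184, 201 and 189 CPM under miR-Exo, 482, 461 and 456 CPM with erastin and NPPC-Exo, and 462, 469 and 477 CPM with erastin and miR-Exo. Its erastin libraries differed little by exosome and lay above all others. On the log2 scale it rose by 1.24 ± 0.06 (adjusted p = 3.9e-09) and 1.30 ± 0.06 (adjusted p = 2.1e-09). On the FPKM scale B2m was the highest of the 41 members in each group, at 91.2 ± 8.9 (SD, n = 3) with NPPC-Exo and 260.4 ± 6.9 (SD, n = 3) with erastin and NPPC-Exo. Tap1 and Tap2 build the peptide transporter. Tap1 measured 20.3, 22.5 and 20.7 CPM with NPPC-Exo, 23.1, 24.8 and 24.0 CPM under miR-Exo, 43.5, 50.7 and 50.2 CPM with erastin and NPPC-Exo, and 43.0, 41.6 and 49.3 CPM with erastin and miR-Exo. Tap2 measured 3.24, 2.20 and 3.69 CPM, 5.55, 3.60 and 2.36 CPM, 11.2, 12.8 and 11.8 CPM and 12.6, 7.90 and 12.8 CPM in the same order. Neither gene had an erastin library within the range of the others. Tap1 rose by 1.18 ± 0.08 (adjusted p = 9.8e-08) and 0.90 ± 0.08 (adjusted p = 1.3e-06), and Tap2 by 1.97 ± 0.29 (adjusted p = 7.9e-05) and 1.53 ± 0.28 (adjusted p = 0.0005). In GRCr8 the starts of Tap1 and Psmb9 lie back to back on chromosome 20, 457 bases apart.

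Tapbp (tapasin), which bridges TAP and class I, measured 19.6, 15.4 and 16.0 CPM with NPPC-Exo, 35.2, 24.7 and 20.3 CPM under miR-Exo, 46.8, 55.7 and 56.8 CPM with erastin and NPPC-Exo, and 54.4, 49.9 and 63.0 CPM with erastin and miR-Exo. The erastin groups overlapped each other and no other group. Its rise in log2 terms was 1.64 ± 0.17 (adjusted p = 4.5e-06) and 1.06 ± 0.17 (adjusted p = 0.00018); 581 bases of Tapbp overlap an unnamed gene on the opposite strand. Cd74, the invariant chain that guards the groove of MHC class II, measured 0.838, 0.960 and 1.88 CPM with NPPC-Exo, while with miR-Exo it measured 0.604, 0.398 and 0.283 CPM. Erastin libraries gave 10.0, 11.3 and 10.2 CPM under NPPC-Exo and 18.4, 17.2 and 16.6 CPM under miR-Exo. The 4 groups did not overlap, and the miR-Exo libraries were the lowest without erastin and the highest with it. Cd74 rose by 3.10 ± 0.26 (adjusted p = 5.3e-07) under NPPC-Exo and 5.35 ± 0.30 (adjusted p = 8.1e-09) under miR-Exo. Of its class II partners, RT1-Ba, RT1-Bb, RT1-Da and RT1-Db1 stayed at or under 0.303 CPM in every library, too low to test. The myeloid marker sum, which held mostly Cd14, and the dendritic sum were higher with erastin as well, and their part in the rise of Cd74 was not tested.

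The remaining 5 members all rose under both kinds of exosome, against 21.5% of all tested genes under NPPC-Exo and 24.7% under miR-Exo. Xaf1, which opposes the caspase inhibitor XIAP, measured 0, 0.282 and 0 CPM with NPPC-Exo, 0.138, 0.311 and 0.126 CPM under miR-Exo, 2.11, 1.69 and 1.06 CPM with erastin and NPPC-Exo, and 1.41, 1.58 and 1.48 CPM with erastin and miR-Exo. It was near silent without erastin, and no groups with and without erastin overlapped. Only with the erastin libraries did it pass the filter on reads. The log2 rise was 4.10 ± 0.89 (adjusted p = 0.002) and 2.95 ± 0.81 (adjusted p = 0.0084); the first was 3.51 without NPPC-Exo replicate 1 and at least 30.05-fold without replicate 2, the only library of that group with counts. Ifi35, an interferon-induced protein with a leucine zipper, measured 2.09, 4.20 and 2.75 CPM with NPPC-Exo, 4.09, 5.14 and 4.99 CPM under miR-Exo, 7.38, 8.39 and 8.90 CPM with erastin and NPPC-Exo, and 13.3, 13.5 and 13.8 CPM with erastin and miR-Exo. With erastin its miR-Exo libraries lay above the NPPC-Exo ones. It rose by 1.45 ± 0.20 (adjusted p = 5.5e-05) and 1.51 ± 0.20 (adjusted p = 2.9e-05).

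Parp9 and Dtx3l encode a pair that works as 1 complex, a PARP family protein with a ubiquitin ligase, and their starts lie back to back on chromosome 11, 1214 bases apart in GRCr8. Parp9 measured 8.57, 11.4 and 9.84 CPM with NPPC-Exo, 11.7, 9.98 and 10.5 CPM under miR-Exo, 26.1, 27.5 and 26.6 CPM with erastin and NPPC-Exo, and 30.1, 31.7 and 32.4 CPM with erastin and miR-Exo. Dtx3l measured 2.99, 4.01 and 2.97 CPM, 3.45, 3.43 and 3.31 CPM, 12.2, 14.4 and 11.9 CPM and 13.7, 13.4 and 11.2 CPM in the same order. Both lay apart from their levels without erastin in every library. Parp9 rose by 1.43 ± 0.10 (adjusted p = 8.8e-08) and 1.55 ± 0.10 (adjusted p = 3.4e-08) on the log2 scale, and Dtx3l by 1.95 ± 0.14 (adjusted p = 1.4e-07) and 1.91 ± 0.14 (adjusted p = 1.4e-07). Trim21, the cytosolic antibody receptor and ubiquitin ligase, rose by 0.79 ± 0.12 (adjusted p = 0.00012) and 0.84 ± 0.12 (adjusted p = 6.1e-05), under 2-fold.

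The kind of exosome moved fewer members. Without erastin, miR-Exo against NPPC-Exo gave 6 higher and 4 lower members of 41, against 4.15% of all tested genes higher and 6.52% lower (edgeR). The lower ones were Ciita (-1.95 ± 0.23 (adjusted p = 0.00019)), Cd74 (-1.52 ± 0.31 (adjusted p = 0.0077)), Usp18 (-1.08 ± 0.17 (adjusted p = 0.0012)) and Irf8 (-0.90 ± 0.18 (adjusted p = 0.0058)). The higher ones were Irf1 (0.41 ± 0.10 (adjusted p = 0.021)), Tapbp (0.65 ± 0.17 (adjusted p = 0.03)), Stat2 (0.26 ± 0.06 (adjusted p = 0.022)), Stat3 (0.22 ± 0.05 (adjusted p = 0.017)), Oasl (3.88 ± 0.83 (adjusted p = 0.0096)) and Gbp4. Gbp4 was at least 4.80-fold higher (adjusted p = 0.00084), from 0 counts with NPPC-Exo to 24, 8 and 15 counts with miR-Exo. It passed the filter on reads through the erastin libraries, which this comparison does not hold. Oasl was at least 20.7-fold higher without NPPC-Exo replicate 2. Of these 10 calls only those of Irf8, Ciita and Usp18 held in every alternative in which the gene was tested. When the fit held only these 6 libraries, 35 members were tested and 3 were called, all lower. Irf1, Stat2, Stat3 and Tapbp each lost the call in 3 or 4 of the 6 fits without a library, with adjusted p from 0.053 to 0.11. For Irf1 these were NPPC-Exo replicate 2 and miR-Exo replicates 2 and 3, and for Stat3 NPPC-Exo replicate 2 and miR-Exo replicates 1 and 3. For Stat2 they were NPPC-Exo replicates 1 and 3 and miR-Exo replicates 2 and 3, and for Tapbp NPPC-Exo replicates 2 and 3 and miR-Exo replicates 1 and 2. Same-numbered libraries of these 2 groups deviated together, and with the replicate number as a block 12 members were called. The block added Irf7, lower at -0.61 (adjusted p = 0.024, against 0.055 without the block), and Ifi35, higher at 0.68 (adjusted p = 0.035, against 0.058). By library size alone, 7 members were higher and 4 lower, and of all calls 68.7% were higher in place of 38.9%.

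With erastin, miR-Exo against NPPC-Exo gave 8 higher and 5 lower members, against 15.6% of all tested genes higher and 15.8% lower, so the members' share was near that of all genes. Lower with miR-Exo were Isg20 (-1.44 ± 0.16 (adjusted p = 2.9e-05)), Irf8 (-1.14 ± 0.17 (adjusted p = 0.00021)), Irf7 (-0.71 ± 0.17 (adjusted p = 0.0078)), Usp18 (-0.65 ± 0.16 (adjusted p = 0.0078)) and Oas1a. Oas1a was at least 11.2-fold lower (adjusted p = 0.011), with 0 counts in all 3 libraries with erastin and miR-Exo. It passed the filter on reads through the libraries with erastin and NPPC-Exo alone, the higher group of this comparison. Irf8 and Usp18 were thus lower with miR-Exo in both settings, from separate libraries. Higher with miR-Exo were Gbp2 (1.00 ± 0.20 (adjusted p = 0.0024)), Stat3 (0.61 ± 0.05 (adjusted p = 2.5e-06)), Stat2 (0.30 ± 0.06 (adjusted p = 0.0028)), Ifi35 (0.72 ± 0.19 (adjusted p = 0.013)), Cd74 (0.73 ± 0.23 (adjusted p = 0.029)), Ifit2 (0.39 ± 0.11 (adjusted p = 0.015)), Psme2 (0.34 ± 0.11 (adjusted p = 0.032)) and Rsad2 (1.88 ± 0.67 (adjusted p = 0.049)). The calls of Gbp2, Stat3 and Stat2 and the 5 lower calls held in every alternative in which the gene was tested. Cd74, Psme2 and Rsad2 lost the call on leaving out any of the 6 libraries, with adjusted p from 0.054 to 0.16. Ifit2 lost it in 4 of 6 fits (replicate 1 or 2 of either group; 0.056 to 0.086), and Ifi35 without replicate 1 of erastin and NPPC-Exo (0.059). Without that library 8 members were called in place of 13. By library size alone 12 members were higher and 5 lower, and of all calls 68.6% were higher in place of 49.7%.

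**Figure D4:**
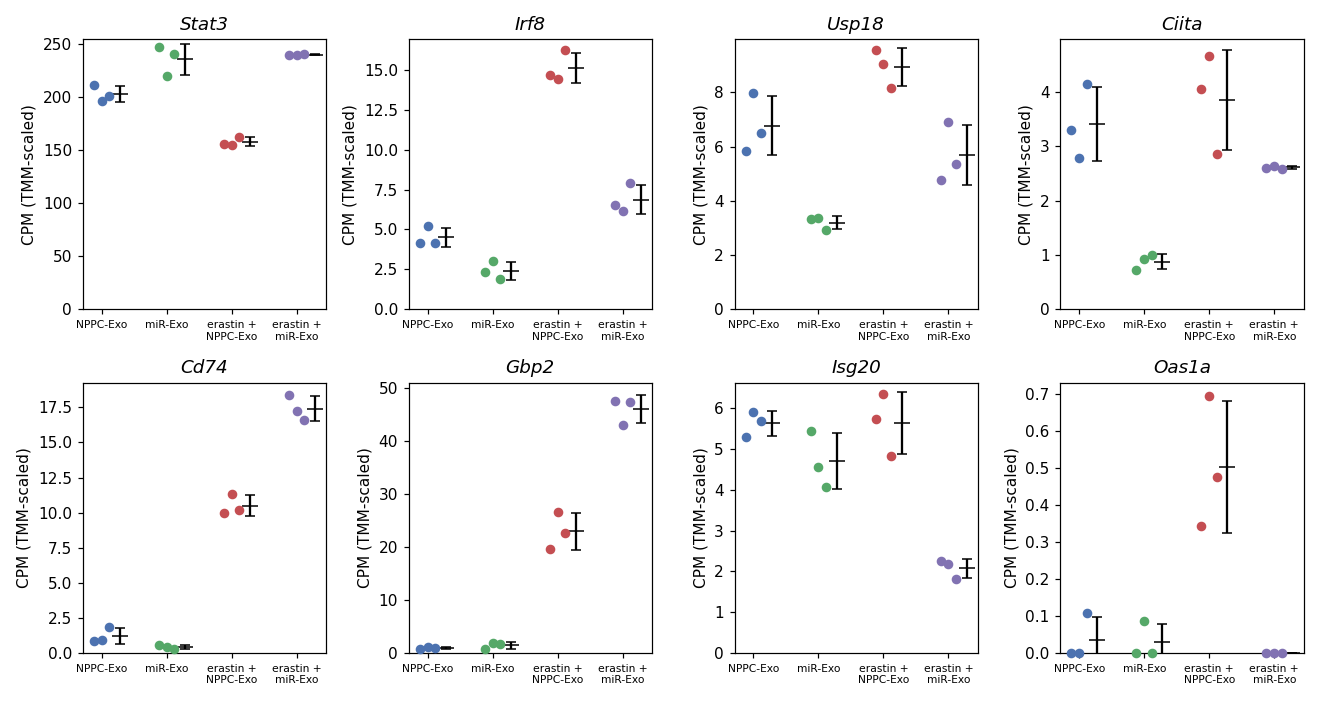
CPM of 8 members in each library of the 4 groups, with the mean ± SD of 3 libraries as bars; each panel has its own axis from 0. Irf8 and Usp18 are lower with miR-Exo on either side of erastin, Cd74 changes order, Isg20 stands below all others with erastin and miR-Exo, and Oas1a stands above 0.3 CPM only with erastin and NPPC-Exo.

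Whether the response to erastin itself differed between the kinds of exosome was tested as an interaction, which called 6 of the 41 members, 3 in each direction, where it called 12.8% of all genes, 5.81% higher and 7.01% lower. The share was near that of all genes. Under miR-Exo the change with erastin was more positive than under NPPC-Exo for Cd74 (2.25 ± 0.39 (adjusted p = 0.0032)), Ciita (1.39 ± 0.31 (adjusted p = 0.013)) and Stat3 (0.39 ± 0.07 (adjusted p = 0.0048)). It was more negative for Isg20 (-1.18 ± 0.23 (adjusted p = 0.0059)), Irf1 (-0.55 ± 0.14 (adjusted p = 0.022)) and Gbp4 (adjusted p = 0.0037). The value of Gbp4 rests on the 0 counts with NPPC-Exo and is not given as a size. Without NPPC-Exo replicate 2 or miR-Exo replicate 2 Irf1 missed the threshold, with adjusted p of 0.058 and 0.052, and so it did by limma on log2(FPKM + 1), with 0.051. Ciita missed it by limma on log2(FPKM + 1) (0.24, adjusted p = 0.16) and on log2(FPKM + 0.1) (0.98, adjusted p = 0.052). Gbp4 missed it in both of these fits (adjusted p = 0.20 and 0.54). For Oasl, Dhx58 and Irf9, which rose under NPPC-Exo alone, and for Usp18 and Ifit2, which rose under miR-Exo alone, the difference did not pass (adjusted p = 0.12, 0.30, 0.11, 0.25 and 0.14 in that order). That of Oasl passed by DESeq2 (adjusted p = 0.034) and without NPPC-Exo replicate 2 (adjusted p = 0.0034), which leaves 0 counts in that group, and that of Ifit2 without NPPC-Exo replicate 1 (adjusted p = 0.025).

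The rest of the pathway was read from further lists, whose counts stand against 21.5% of all tested genes that rose and 22.1% that fell under NPPC-Exo, and 24.7% and 24.4% under miR-Exo. Of 15 tested receptors, JAK kinases, STATs and regulators, 9 rose and none fell under NPPC-Exo, and 8 rose and none fell under miR-Exo. Ifngr1, a chain of the interferon gamma receptor, measured 53.7, 52.0 and 53.0 CPM with NPPC-Exo, 50.1, 48.9 and 51.4 CPM under miR-Exo, 159, 189.6 and 187 CPM with erastin and NPPC-Exo, and 175, 177 and 181 CPM with erastin and miR-Exo. Its rise was 1.75 ± 0.06 (adjusted p = 1.4e-10) and 1.82 ± 0.06 (adjusted p = 8.4e-11), with no overlap between libraries with and without erastin. Ifnar1, of the type I receptor, rose by 0.31 ± 0.05 (adjusted p = 0.0002) and 0.57 ± 0.05 (adjusted p = 5.2e-07), and the kinase Jak2 by 0.89 ± 0.11 (adjusted p = 1.6e-05) and 1.82 ± 0.11 (adjusted p = 1.7e-08). The inhibitor Socs3 changed by 0.75 ± 0.25 (adjusted p = 0.025) and 0.52 ± 0.24 (adjusted p = 0.091), and Socs1 was too low to test, at most 0.182 CPM. Interferons themselves were all but absent from what could be tested: 3 of the ligand list were tested, none an interferon (Il15, Il12a and Ebi3), and none rose, while Il15 fell under miR-Exo (-1.16 ± 0.43 (adjusted p = 0.04)). Ifnb1 and Ifng had no row by these symbols in the deposited table. Ifne, an interferon that had a row, was too low to test, with at most 17 counts in a library.

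Of 11 tested genes of nucleic acid sensing, 6 rose and 2 fell under NPPC-Exo, and 5 rose and 2 fell under miR-Exo. Tlr3, the endosomal receptor of double-stranded RNA, rose by 1.46 ± 0.18 (adjusted p = 1.7e-05) and 1.47 ± 0.18 (adjusted p = 1.4e-05), while the adaptor Mavs fell by 0.62 ± 0.09 (adjusted p = 4.9e-05) and 0.47 ± 0.09 (adjusted p = 0.00048). Sting1, the adaptor of cytosolic DNA sensing, had 0 counts with NPPC-Exo and 2.24, 1.33 and 1.08 CPM with erastin and NPPC-Exo, at least 28.4-fold higher (adjusted p = 8.7e-07). With miR-Exo Sting1 had 57, 33 and 39 counts, and with erastin and miR-Exo 379, 367 and 336 counts. It was thus silent without erastin under NPPC-Exo alone. Of 46 tested other interferon-induced genes, 31 rose and 2 fell under NPPC-Exo, and 31 rose and 3 fell under miR-Exo. Cxcl10, a chemokine for T cells, rose by 4.50 ± 0.16 (adjusted p = 9.8e-11) and 4.29 ± 0.15 (adjusted p = 1.1e-10), and Parp14 by 2.21 ± 0.11 (adjusted p = 2.6e-09) and 2.31 ± 0.11 (adjusted p = 1.4e-09). Of 19 genes of MHC class I and its loading, 17 rose and 1 fell under NPPC-Exo, and 15 rose and none fell under miR-Exo. Tapbpl, an editor of class I peptides, rose by 1.39 ± 0.08 (adjusted p = 2e-08) and 1.28 ± 0.08 (adjusted p = 3.7e-08), and the class I gene RT1-CE7 by 1.91 ± 0.14 (adjusted p = 1.6e-07) and 1.35 ± 0.14 (adjusted p = 3.3e-06), though reads of the RT1 genes may be shared. Of 4 tested class II genes, RT1-DMa and the regulators Rfx5, Rfxap and Rfxank, none passed under NPPC-Exo. Under miR-Exo 2 rose, Rfxap (0.64 ± 0.19 (adjusted p = 0.015)) and Rfx5 (0.21 ± 0.07 (adjusted p = 0.024)). RT1-DMa had reads in every library, 75 to 310 counts. Of 15 constitutive proteasome genes, which include the activators Psme3 and Psme4, 7 rose under NPPC-Exo. Under miR-Exo 8 of them rose and 1 fell, and all these changes were less than 2-fold.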

How the data were processed

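Gene-level raw counts and FPKM of the 12 libraries, both as the authors deposited them, were read from 1 table, per the file headers. Per the submitters' processing notes StringTie and the mRatBN7.2 build were used, with no version given; the sources used here name no aligner, counting tool, strand setting or filter (not given in the sources used here). As the table's coordinates do not settle its build, none is printed from it; promoters are RefSeq's, in GRCr8. Of the counts from 1 to 20, 57.3% were even, so halved counts were tried as an alternative.

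The 41 members and all lists were chosen with earlier results of these data known; 1 gene counted in the lists of the wider pathway is not reported here. A member given in every library was called in some comparison with at least a 2-fold change there, or in the interaction; other genes were named by the smallest adjusted p of their list, up to 4 a list, or because they are central to the pathway. Counts of 15650 genes kept by filterByExpr were scaled by TMM (factors 0.877 to 1.15) and fitted with edgeR 4.0.16 in R 4.3.3 with a mean for each of 4 groups and 1 estimate of spread over the 12 libraries. The 5 comparisons were the effect of erastin under either exosome, the effect of the exosome in the absence or presence of erastin, and the interaction of both. The 2 erastin comparisons each share control libraries with the comparisons between exosomes. P-values were adjusted by Benjamini and Hochberg with a threshold of 0.05. Where a group had 0 counts, 3 counts per library served as a floor and the change is printed as a bound, which covers counting error only. Alternatives were RLE scaling or library size alone, other filters, DESeq2 1.42.0, limma 3.58.1 on log2(FPKM + 1) or (FPKM + 0.1), halved counts, fits of the compared groups alone, a block for the replicate number, and omission of each library. The replicate numbers come from the labels, which name no shared culture or day; deviations from the group means correlated above 0.1 in all 3 same-number pairs of NPPC-Exo and miR-Exo without erastin (r = 0.40, 0.21 and 0.12 over 10162 genes), and not in all 3 of any other 2 groups. In counts simulated for erastin under NPPC-Exo over 15650 genes, the edgeR fit recovered 52.2% of 1.5-fold, 86.6% of 2-fold and 97.0% of 4-fold changes, and 4.27% of 164 calls were false. The changes were planted in a small share of the genes, all above 1 CPM on average, with rises and falls at equal odds. The recovery therefore does not cover members below that level. Nor does the false share cover data with many more changes.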

Additional observations from a re-analysis of the deposited data

Results flagged for a closer look

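For 6 members the change with erastin differed between the kinds of exosome, by edgeR's interaction test over 15650 genes with Benjamini-Hochberg adjustment. The change under miR-Exo minus that under NPPC-Exo, on the log2 scale, was 2.25 ± 0.39 for Cd74 (adjusted p = 0.0032), 1.39 ± 0.31 for Ciita (adjusted p = 0.013) and 0.39 ± 0.07 for Stat3 (adjusted p = 0.0048). It was -1.18 ± 0.23 for Isg20 (adjusted p = 0.0059), -0.55 ± 0.14 for Irf1 (adjusted p = 0.022) and -6.51 for Gbp4 (adjusted p = 0.0037). The value of Gbp4 is set by 0 counts in the NPPC-Exo group and is no measure of size. Over all tested genes 12.8% passed this test.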

How the results depend on the processing

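Over 3403 values of 205 results on single members, 3246 kept their side of the threshold, and their direction where both fits passed it. Another 84 passed it where the reported value had not, 69 no longer passed, and 4 turned. Direction was not compared where neither fit passed. With erastin 29 of 32 calls under NPPC-Exo and 30 of 32 under miR-Exo held in every alternative in which the gene was tested, but 3 of 10 between exosomes without erastin, 8 of 13 with it, and 3 of 6 in the interaction. The change of Irf9 under miR-Exo, -0.02, turned to 0.29 by library size alone and to 0.24 and 0.28 by limma on log2(FPKM + 1) and log2(FPKM + 0.1). The interaction of Gbp4 turned to 0.23 by limma on log2(FPKM + 1).

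Called members between exosomes without erastin fell from 10 to 3 when only the groups compared were fitted. That fit tested 35 members in place of 41, and the part of this in the fall was not tested. The log2 change in the ratio of immunoproteasome to constitutive subunits was 1.45 with erastin under NPPC-Exo, 1.72 on TMM-scaled CPM and 2.66 for Psmb8 over Psmb5. Under miR-Exo it was 1.27, 1.42 and 2.16, and between exosomes without erastin 0.36 against 0.79 for Psmb8 over Psmb5.

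Leaving out each library gave 30 to 33 members called with erastin under NPPC-Exo, 30 to 32 under miR-Exo, 7 to 11 between exosomes without erastin, 8 to 11 with it, and 5 to 8 in the interaction. Over all genes the counts were 5971 to 6585, 6766 to 7349, 970 to 1854 (1669 reported; lowest without NPPC-Exo replicate 2), 3784 to 4657, and 1205 to 2419 (2006 reported; lowest without replicate 3 of erastin and NPPC-Exo). The log2 change in the ratio of immunoproteasome to constitutive subunits ranged over 1.41 to 1.49, 1.21 to 1.33, 0.32 to 0.40 and 0.12 to 0.24. Replicate numbers paired the 2 groups without erastin but not the others (4 of 18 same-number pairs correlated above 0.1, and 7 of 12 libraries correlated best with their own number); a replicate block over all 12 libraries gave 33, 32, 12, 12 and 6 members called, and ended the call of Rsad2 between exosomes with erastin (adjusted p = 0.080); beside the gains of Irf7 and Ifi35 without erastin it added Usp18 with erastin under NPPC-Exo (adjusted p = 0.039) and changed no other call of a member. With a floor of 3 counts per library, differences of genes under 0.0440 to 0.0565 CPM were not detectable.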
